A study of Homo sapiens with 6 samples.

Results

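The HOXB genes form 1 of the 4 human HOX clusters, and their transcripts were examined in K562, an established cell line of human chronic myeloid leukemia that keeps erythroid traits. The members were chosen by name, as the 8 genes HOXB2 to HOXB9, and 6 of them (HOXB2, HOXB3, HOXB5, HOXB7, HOXB8 and HOXB9) had a row in all 3 deposited tables, among 16652 genes with a value in the 3 groups. HOXB4 and HOXB6 were not analysed here. Lines of 3 kinds, all stably transformed, were compared, with 2 samples each. The CTR cells carried an empty vector, the CEBPA cells a Tet-inducible transgene of wild-type C/EBPα, and the P30 cells a Tet-inducible transgene of C/EBPα-p30, the short isoform found in acute myeloid leukemia with CEBPA mutations. The vectors were PiggyBac transposons, and the parental cells are described as lacking both isoforms. By the study's western blot, induced CEBPA cells are described as making the full-length protein and p30 as well. The level of CEBPA itself was not analysed here. All 6 samples, CTR included, received 200 ng/ml doxycycline for 48 h, and uninduced cells were not part of the groups. The labels do not say how many clones each line holds.

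The unit throughout is FPKM, the fragments of a gene scaled by transcript length and by the number of mapped fragments, which can be compared between genes for this reason. Each gene has 1 FPKM per group, which was estimated from both samples together. The tables hold no spread between samples, depth or p-value, so no test was run here and the comparisons that follow are descriptions of pooled values. A difference between groups is given as a difference of log2(FPKM + 1), which understates the change of low genes. A difference of at least 2-fold is counted on this scale unless the ratio of FPKM, without the added 1, is named. Counts by the ratio were added after the data were seen. Genes that exceeded 1 FPKM in either group of a pair were kept, and all 6 HOXB genes passed this filter in every group.

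HOX genes code for transcription factors that bind DNA through a homeodomain, a fold encoded by the homeobox, and they act together with cofactors of the PBX, MEIS and PKNOX families. Their order along the chromosome follows the order in which they are switched on along the body axis, the genes at the 3′ end being used first and furthest to the front. In blood formation HOX genes are active in stem and progenitor cells and are shut down as the cells mature, and persistent HOX activity is a feature of many acute leukemias. Their chromatin is kept active by Trithorax proteins such as the MLL protein KMT2A, and silent by Polycomb complexes.

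On GRCh37, the build of the authors' alignment, HOXB2 to HOXB9 lie on the minus strand of chromosome 17 between 46620017 and 46703720, a stretch of 83.7 kb by the canonical transcripts of a later Gencode release than theirs. HOXB2 (ENSG00000173917) is at the 3′ end, from 46620017 to 46622471. It is followed by HOXB3 (ENSG00000120093, 46626232 to 46667603), HOXB5 (ENSG00000120075, 46668619 to 46671141) and HOXB7 (ENSG00000260027, 46684594 to 46688379). HOXB8 (ENSG00000120068, 46689708 to 46692654) and HOXB9 (ENSG00000170689, 46698518 to 46703720) close the row. Apart from HOXB3, which has 5 exons in this release, each of the 6 has 2 exons.

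Because the members descend from a common gene, their homeoboxes and transcripts were compared to see how far a sequenced fragment can tell them apart. The 42 coding bases around the recognition helix, the part of the homeodomain that reads the DNA, are shown for HOXB2, HOXB7, the exception among the differences below, and HOXB9, which differed most, with the 18 bases of the conserved core in capitals (Gencode transcripts, GRCh37, coding strand).
HOXB2: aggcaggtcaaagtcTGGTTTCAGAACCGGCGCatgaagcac
HOXB7: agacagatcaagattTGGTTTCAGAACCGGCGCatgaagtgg
HOXB9: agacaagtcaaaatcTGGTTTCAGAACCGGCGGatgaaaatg
Over the whole homeobox the closest pairs were HOXB5 and HOXB7, with 81.7% identical bases, and HOXB7 and HOXB8, with 80.0%. HOXB5 and HOXB9 were the most distant, with 60.6%. Between the whole canonical transcripts of any 2 of the 6, the longest identical run was 37 bases, in HOXB3 and HOXB5. Between those of HOXB8 and HOXB9 it was 14 bases. Against transcripts of the HOXA, HOXC and HOXD genes the longest run was 62 bases, shared by HOXB3 and HOXD3, a gene without a row here. Same-strand gene models overlap in 2 places: some HOXB3 transcripts of the later release span HOXB4, HOXB5 and HOXB6, and some HOXB7 transcripts span HOXB8 and HOXB9. The canonical exons of these genes do not overlap, but the division of fragments among such models is uncertain.

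The 6 genes were expressed at very different levels. In CTR cells HOXB9 had the highest value, with 98.96 FPKM, followed by HOXB2 with 54.99, HOXB3 with 36.72, HOXB7 with 12.97, HOXB8 with 10.90 and HOXB5 with 1.98. HOXB9, the gene nearest the 5′ end of the 6, alone made up 45.7% of their summed level of 216.5 FPKM. It was 50.0 times as high as HOXB5 and exceeded or equalled 92.3% of all genes over 1 FPKM in at least 1 group, whereas HOXB5 exceeded only 20.4% of them. Level did not follow position along the cluster, since the genes at both ends were high and HOXB5, in the middle, was low. The order from HOXB9 to HOXB5 was the same in all 3 groups. The tables give no spread for the neighbours in this order, so HOXB7 and HOXB8 in CTR cannot be called different.

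**Figure D1:**
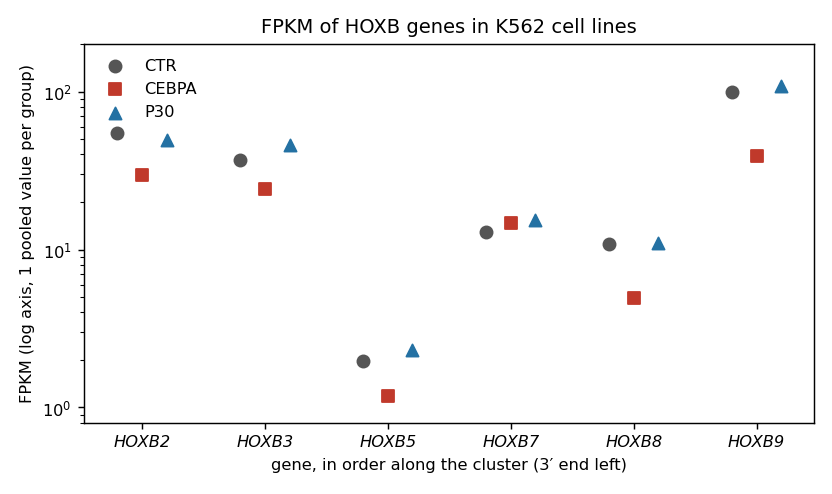
FPKM (log axis) of the 6 HOXB genes with a row, in order along the cluster, with 1 pooled value per group (gray circles CTR, red squares CEBPA, blue triangles P30) and no error bars because the authors pooled the samples. The CEBPA value is the lowest of the 3 for 5 genes, while for HOXB7 the 3 values lie close together, from 12.97 to 15.29 FPKM.

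The identity of the cells was checked with markers. Of 10 erythroid and K562 markers, 7 had a row, and in CTR they ranged from 42.2 FPKM for EPOR, the erythropoietin receptor, to 872 for the fetal globin HBG1. In CEBPA vs CTR 6 of these 7 were at least 2-fold lower, against 6.92% of all genes, with a median of -1.64. The summed level of the 7 markers was 707.6 FPKM in CEBPA against 1786 in CTR, the sum in P30 being 1285 FPKM. GATA1, the main erythroid factor, was 184.6 FPKM in CTR cells, 53.1 in CEBPA cells and 192.9 in P30 cells. In this gene P30 cells were nearly level with CTR. Over all genes 44.9% were lower in P30 than in CTR. In the marker list 4 of 7 were lower and 3 higher, with a median of -0.24. Of these HBG1 was 872.0 FPKM in CTR and 410.4 in P30, the only one at least 2-fold lower, and the erythroid factor KLF1 was 160.0 and 114.9 FPKM. Over all genes 14.0% were at least 2-fold higher in CEBPA than in CTR. Of 8 granulocytic markers 6 had a row, and 5 of these were at least 2-fold higher in this comparison. Their summed level was 7.11 FPKM for CTR, 42.19 for P30 and 8429 for CEBPA cells, nearly all of it from S100A9 and S100A8. In P30 vs CTR 4 of 5 rows compared were at least 2-fold higher, against 1.63% of all genes in either direction. Among these 4 rows was ITGAM, a myeloid integrin, with 14.28 FPKM in P30 and 2.59 in CTR. ITGAM was 2.43 FPKM in CEBPA, the only marker of the 6 that was not higher there than in CTR. Of 5 lymphoid markers 3 had a row, with sums of 13.2 FPKM in CTR cells, 4.34 in CEBPA cells and 13.2 in P30 cells, and of 4 stromal and epithelial markers 3 had one, with sums of 33.7, 24.5 and 47.5 FPKM, mostly from EPCAM. The part of these shifts in the HOXB values given next was not tested. In bulk RNA, fewer cells of a type and less RNA per cell cannot be told apart.

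The comparison of CEBPA with CTR cells asks how wild-type C/EBPα, a factor that drives granulocyte formation, changes transcript levels. The paper reports that doxycycline stopped the growth of CEBPA cells and started their granulocytic differentiation. It reports no effect on proliferation of CTR and P30 cells. The part of this difference in the HOXB values was not tested. Of the 6 HOXB genes, 5 were lower in CEBPA cells and HOXB7 was slightly higher. The median difference was -0.73 on the log2(FPKM + 1) scale, where the median of all 13673 genes compared was -0.01. At least 2-fold lower were 2 of the 6, HOXB9 and HOXB8, or 33.3%, against 6.92% of all genes, and none of the 6 was at least 2-fold higher, against 14.0% of all genes. With 6 genes at 1 locus and no replicate values, these counts describe the members and support no test. A lower value of any kind was found for 50.5% of all genes.

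HOXB9, a homeodomain factor of the posterior group, was 98.96 FPKM in CTR cells, 38.98 in CEBPA cells and 108.0 in P30 cells. The CEBPA value stood apart, and the other values were close to each other. The log2 difference between CEBPA and CTR was -1.32, and 3.04% of all genes were as far down or further. Of the total drop of the 6 genes, HOXB9 accounted for 58.1%, and its share of their sum was 34.4% in CEBPA.

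HOXB8, whose enforced expression is known to hold myeloid progenitors in an immature state, was 10.90 FPKM in CTR cells, 4.93 in CEBPA cells and 11.04 in P30 cells. Again CEBPA alone was low. The log2 difference of CEBPA and CTR was -1.005, almost exactly on the 2-fold line, and 6.85% of all genes were as far down or further. By the ratio of FPKM, HOXB8 was 2.21 times as high in CTR and 2.24 times as high in P30 as in CEBPA. With the added 1 and changes centred on the median of all genes it was short of 2-fold in both comparisons with CEBPA, and the count of HOXB genes past that line was 1, HOXB9. With 0.1 added in place of 1, the centred values of HOXB8 were -1.12 and -1.11 and the count was 2.

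HOXB2, known for patterning of the hindbrain, was 54.99 FPKM in CTR cells, 29.45 in CEBPA cells and 49.55 in P30 cells. HOXB3, a gene active in early blood progenitors, was 36.72, 24.08 and 46.18 FPKM in the same order. In each of these 2 genes CEBPA had the lowest value, and the log2 differences from CTR were -0.88 for HOXB2 and -0.59 for HOXB3. HOXB2 came nearest to 2-fold among the genes that did not reach it.

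HOXB5, known as a marker of long-lived blood stem cells in mice, was 1.98 FPKM in CTR cells, 1.18 in CEBPA cells and 2.32 in P30 cells. Its log2 difference was -0.45, and its ratio of CEBPA to CTR, 0.596 without a pseudocount, lay between those of HOXB2 (0.536) and HOXB3 (0.656). The smaller log2 difference of HOXB5 therefore partly reflects the added 1 at so low a level.

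HOXB7, known to activate the growth factor gene FGF2 in melanoma cells, was the exception, with 12.97 FPKM in CTR cells, 14.65 in CEBPA cells and 15.29 in P30 cells. The 3 values were close together, and the log2 difference of CEBPA and CTR was 0.16. HOXB7 lies between HOXB5 and HOXB8 among the genes measured, and both of these were lower in CEBPA. The level of HOXB8 relative to HOXB7 went from 0.840 in CTR to 0.337 in CEBPA, and it was 0.722 in P30. In CEBPA cells HOXB7 contributed 12.9% of the summed HOXB level, against 5.99% in CTR.

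**Figure D2:**
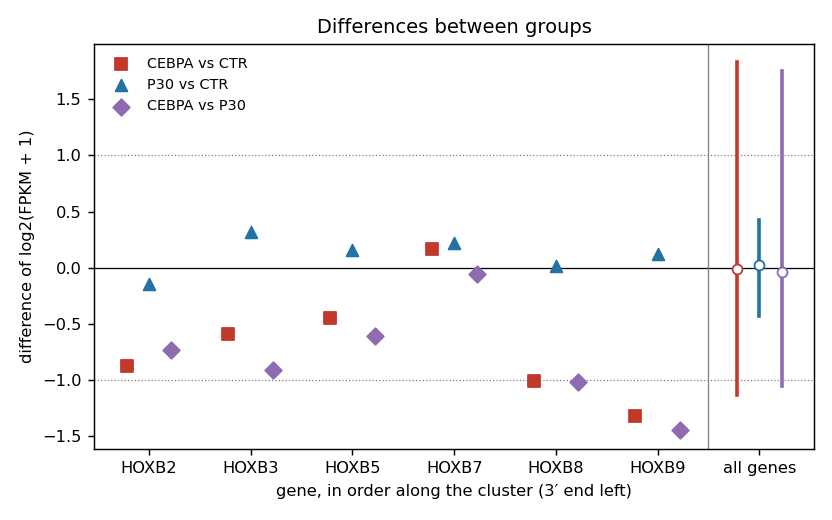
Difference of log2(FPKM + 1) for each HOXB gene in the 3 comparisons (red squares CEBPA vs CTR, blue triangles P30 vs CTR, purple diamonds CEBPA vs P30), with dotted lines at a 2-fold difference. At the right, the open circles give the median and the bars the 5th to 95th percentile of all genes compared. HOXB9 is lowest in both comparisons with CEBPA, at -1.32 and -1.45, and all P30 vs CTR values lie between -0.15 and 0.32.

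The comparison of P30 with CTR cells asks the same of the short isoform. Here the HOXB genes differed little: 5 were higher and 1 was lower in P30, with a median of 0.14 against 0.02 over all 12395 genes compared, of which 44.9% were lower. None of the 6 reached a 2-fold difference in either direction, and neither did most other genes, since only 1.63% of all genes did so. HOXB3 had the highest difference, 0.32, and 8.55% of all genes were as far up or further. HOXB2 was the lower one, with -0.15. HOXB8 differed by 0.02, and its sign turned when all changes were centred on the median of all genes. The 5th and 95th percentiles of all genes were -0.43 and 0.42, and the 6 members lay within them. The summed level was 232.4 FPKM in P30, or 1.07 times that in CTR.

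Set directly against P30 cells, CEBPA cells had lower values of all 6 HOXB genes, by a median of -0.82, while 52.1% of all 13569 genes were lower. The CEBPA cells are described as making both isoforms, so this does not compare the full-length protein alone with p30. HOXB9 differed by -1.45 and HOXB8 by -1.02, which were 2 of 6 past 2-fold, against 5.79% of all genes. HOXB3 followed with -0.91, HOXB2 with -0.73 and HOXB5 with -0.61, and HOXB7 was nearly level at -0.06. The summed HOXB level in CEBPA, 113.3 FPKM, was 0.487 times that in P30 and 0.523 times that in CTR. Without HOXB9 the ratios were 0.597 and 0.632. This comparison shares the CEBPA samples with that of CEBPA and CTR, so the likeness of the 2 is no separate evidence.

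The next question was whether transcripts around the 6 genes differed in the same way. Of 13 other symbols of the locus that were looked up, some of them synonyms, HOXB-AS1 and HOXB-AS4 had a row. HOXB-AS1, a long non-coding RNA on the opposite strand that runs from HOXB2 into HOXB3, was 8.08 FPKM in CTR cells, 9.93 in CEBPA cells and 9.48 in P30 cells. It was not lower in CEBPA, unlike HOXB2 and HOXB3 on either side, and its log2 difference from CTR was 0.27. Its exons overlap those of HOXB3 by 279 bases on the opposite strand. The library kit keeps the strand of the RNA, but whether strand was used in the estimates is not given in the sources used here. HOXB-AS4, beyond HOXB9, was below 1 FPKM in all 3 groups.

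The window around the start of HOXB-AS1 is shown because this transcript differed in direction from the gene in which it starts (RefSeq, GRCh38.p14, plus strand, chr17:48544101-48544400).
HOXB-AS1: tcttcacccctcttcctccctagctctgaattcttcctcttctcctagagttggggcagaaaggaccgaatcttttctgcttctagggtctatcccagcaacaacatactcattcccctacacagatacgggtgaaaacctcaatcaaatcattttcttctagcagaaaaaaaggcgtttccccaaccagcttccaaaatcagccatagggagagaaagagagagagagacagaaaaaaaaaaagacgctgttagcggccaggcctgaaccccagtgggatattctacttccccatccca
These 300 bases match GRCh37 at 1 position, 46621463 to 46621762 of chromosome 17, and lie wholly in the intron of HOXB2. No letters are in capitals, because none of the 3 motifs searched on both strands was found: TTNNGCAA, a form of the C/EBP site, occurs in 10.5% of 35116 RefSeq promoter windows of this length, CCAAT in 34.6% and TATAAA in 11.5%. This says only that these letters are not in this window.

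Outside the cluster, 10 of 12 neighbouring genes had a row. In CEBPA vs CTR 1 of the 10 was at least 2-fold higher, against 14.0% of all genes. At least 2-fold lower were 0 of the 10, against 6.92% of all genes, and their median was -0.09. By the ratio of FPKM 2 were higher, the other being COPZ2, a vesicle coat subunit, with 0.347 FPKM in CTR and 1.39 in CEBPA. The exception on the log2 scale was SKAP1, an adaptor protein of T cell signaling and the nearest of these genes on the 3′ side, which was 0.237 FPKM in CTR cells, 9.29 in CEBPA cells and 0.330 in P30 cells. Its start lies 196.1 kb from that of HOXB9, and its log2 difference of 3.06 is opposite in direction to that of 5 of the 6 HOXB genes. CALCOCO2, an autophagy receptor 204.7 kb away on the other side, was 57.7, 91.5 and 67.3 FPKM in CTR, CEBPA and P30. Lower values in CEBPA were seen for CDK5RAP3 (112.8 to 76.98 FPKM) and ATP5G1, a subunit of the mitochondrial ATP synthase (159.3 to 99.44 FPKM). CBX1, a heterochromatin protein, hardly differed, with 58.8 and 56.9 FPKM.

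**Figure D3:**
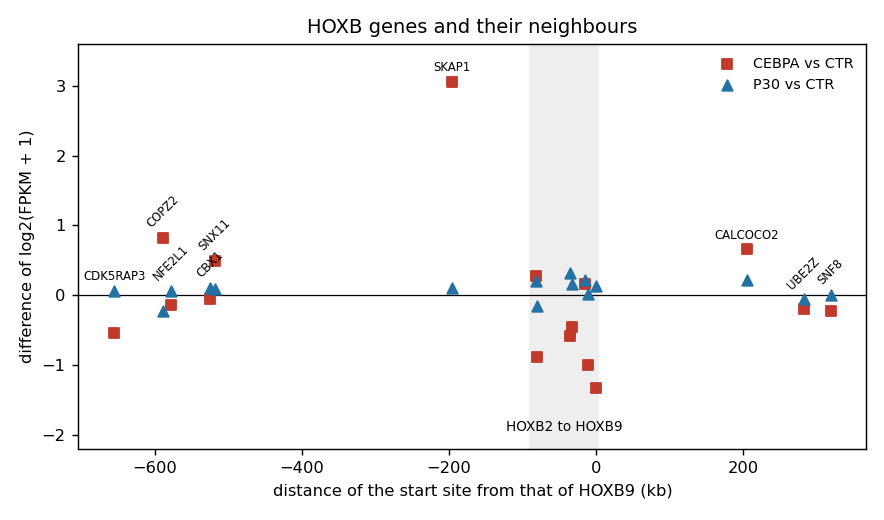
Difference of log2(FPKM + 1) against the distance of each gene's start site from that of HOXB9 in kb. Red squares give CEBPA vs CTR, blue triangles P30 vs CTR. Genes of the locus over 1 FPKM in at least 1 group are shown if a position was at hand. ATP5G1 had none under this name and is left out. Its difference between CEBPA and CTR, -0.67, was the most negative of the neighbouring genes outside the cluster. The shaded part holds the HOXB genes and HOXB-AS1. SKAP1 stands at 3.06 in CEBPA vs CTR, while 5 HOXB genes lie below 0.

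Few genes of the other HOX clusters had a row, and a missing row does not show that a gene was silent. Of 11 HOXA genes only HOXA13 had a row, listed at 0 in CTR and P30 and at 0.445 FPKM in CEBPA, and of 9 HOXD genes 0 had one. Of 9 HOXC genes, 3 had a row. HOXC10 was 11.94 FPKM in CTR cells, 8.08 in CEBPA cells and 15.24 in P30 cells, and HOXC13 was 2.15, 0.819 and 1.74. Both were lowest in CEBPA, with log2 differences from CTR of -0.51 and -0.79, and neither reached 2-fold on that scale. By the ratio of FPKM, HOXC13 was 2.62 times as high in CTR as in CEBPA. HOXC8 stayed under 1 FPKM in all groups.

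The cofactors of HOX proteins differed in both directions. In CEBPA vs CTR, 2 of 7 rows compared were at least 2-fold higher and 1 was at least 2-fold lower, with a median of 0.39. Over all genes these shares were 14.0% and 6.92%. By the ratio of FPKM 3 of the cofactor rows were at least 2-fold higher and 3 lower. MEIS1, the partner whose joint activity with HOX proteins is known from acute leukemia, was 2.23 FPKM in CTR cells, 8.67 in CEBPA cells and 2.15 in P30 cells. MEIS2 was 14.4, 36.3 and 19.9 FPKM. For these 2 cofactors CEBPA held the highest value, where 5 of the 6 HOXB genes had their lowest. MEIS3 went the other way, with 7.55 FPKM in CTR cells, 1.71 in CEBPA cells and 3.42 in P30 cells, and PBX4 was 2.70, 0.909 and 3.15. PBX2 was 1.31, 0.373 and 1.05 FPKM, and it and PBX4 were at least 2-fold lower in CEBPA than in CTR by the ratio only. In P30 vs CTR 0 of 6 cofactor rows reached 2-fold on the log2 scale, against 1.63% of all genes. By the ratio 1 cofactor row did, MEIS3. The symbol PBX3 stands for 2 rows, both under 2 FPKM.

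Of the 13 Trithorax and MLL complex genes compared in CEBPA vs CTR, 9 were lower and 4 higher, and 0 reached 2-fold. Over all genes 50.5% were lower. KMT2A was 24.1 FPKM in CTR cells, 15.5 in CEBPA cells and 24.2 in P30 cells. ASH2L, a core subunit of the same complexes, was 89.7, 52.3 and 100.2 FPKM, the most negative of this list at -0.77. MEN1, which tethers MLL to HOX genes, was nearly level, with 37.98 FPKM in CTR and 36.27 in CEBPA.

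Of the 19 Polycomb genes compared, 13 were lower and 6 higher in CEBPA, with a median of -0.13. Over all genes 50.5% were lower. At least 2-fold higher was 1 of the 19, against 14.0% of all genes, and at least 2-fold lower were 2, against 6.92%. PHC3, of the PRC1 complex, was at least 2-fold higher, going from 3.86 to 9.29 FPKM, and CBX6 and PCGF2 were at least 2-fold lower, from 8.06 to 3.35 and from 21.6 to 10.3 FPKM. CBX7, from 5.41 to 2.62 FPKM, joined them by the ratio of FPKM. EZH2, the methyltransferase of PRC2, was 79.2 FPKM in CTR cells, 72.0 in CEBPA cells and 73.8 in P30 cells, and EED, its partner, 33.5, 60.1 and 35.5. Of 9 upstream regulators, 8 were lower, against the same 50.5% of all genes. On the log2 scale 0 of the 9 reached 2-fold, against the same 14.0% higher and 6.92% lower over all genes. By the ratio of FPKM 2 of the regulators did, CTCF and RARG. CTCF, which divides HOX clusters into chromatin domains, was 25.2, 12.4 and 24.7 FPKM, a log2 difference of -0.96 between CEBPA and CTR and a ratio of 2.03. The retinoic acid receptor RARA was 9.38, 7.69 and 11.4 FPKM.

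**Figure D4:**
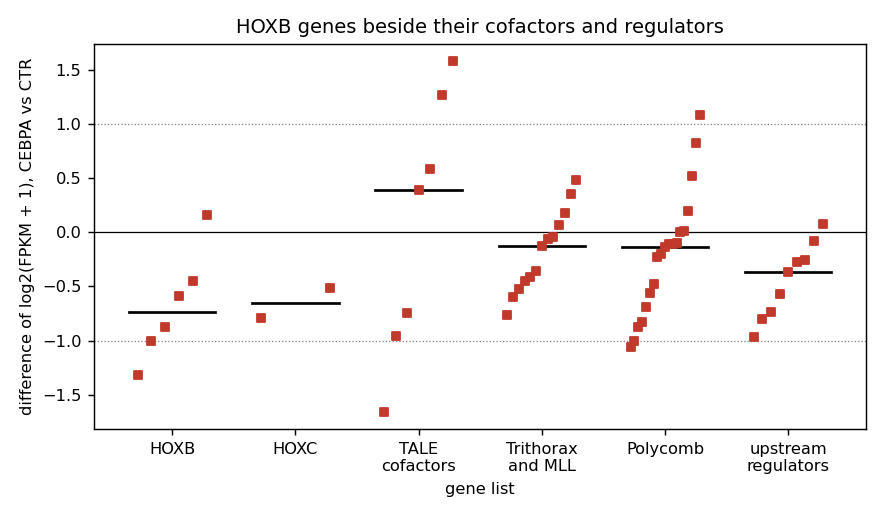
Difference of log2(FPKM + 1) between CEBPA and CTR for each gene over 1 FPKM in at least 1 of these groups (red squares), by list, with the median of each list as a black line and dotted lines at a 2-fold difference. The HOXB median is -0.73, that of the 2 HOXC genes -0.65 and that of the upstream regulators -0.36. The median of the cofactors is 0.39, and the chromatin lists lie near 0, at -0.12 and -0.13.

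Genes with the pattern most like that of HOXB9 were sought among 13719 other genes, by the distance between their differences of CEBPA and of P30 from CTR and their level in CEBPA, all on the log2(FPKM + 1) scale. Over these 3 group values, the nearest was TYMS, the thymidylate synthase, at a distance of 0.0911, with 105.5 FPKM in CTR cells, 41.3 in CEBPA cells and 112.3 in P30 cells. MBOAT7, SPC25, ELP6 and C9orf142 followed, at 0.119 to 0.192. Nearest to the median of the 6 HOXB genes were C7orf43, ADNP, ZNF672, CDC7 and NABP2, at 0.0751 to 0.118. With 3 values per gene, the list is a description only.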

How the data were processed

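The series holds RNA-seq of 6 K562 samples. The study describes more than 1 sequencing run, with libraries made at different places and read on different instruments. The pooled FPKM do not separate these runs. The authors aligned the reads to hg19 (TopHat2 2.0 in the submitters' processing notes), assembled them with Cufflinks on a Gencode annotation, and deposited FPKM that they had estimated with Cuffdiff, as 1 value per gene and group in 3 tables of 2 groups each. Cuffdiff's normalization setting and the rule that selected the rows are not given in the sources used here. FPKM keep no depth. Values of symbols that occur once were equal in every table (0 of 45911 differed).

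From these FPKM, differences of log2(FPKM + 1) were computed among genes that exceeded 1 FPKM in either group of a pair. Each table kept its own rows. Repeated symbols were joined over 3 groups by symbol and CEBPA value, and only where the table of CTR and P30 held the same pair. No test was run, and no random list was drawn. The members and gene lists were chosen with earlier results of these data known. Named genes are the members, members of the lists, the 5 genes nearest in pattern to HOXB9 and the 5 nearest to the members' median. Some list members and sequences are not reported here. Positions are from Gencode on GRCh37. The alternatives were a pseudocount of 0.1, centring on the median, no filter, a filter at 5 FPKM and summed rows, and, added after seeing the data, no pseudocount and a pseudocount of 0.1 with centring. The computation was tested on simulated data. Python 3.11.15, numpy 2.4.6, pandas 2.3.3 and matplotlib 3.10.9 were used.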

Additional observations from a re-analysis of the deposited data

How the results depend on the processing

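No paired analysis was possible because the authors pooled the samples of each group. For the same reason no sample could be left out in turn. The limit for calling a log2 difference moved was 0.20, the scaled median absolute deviation of all genes in P30 vs CTR, and that for a count was a factor of 1.5. Recomputing 24 results gave 165 values, of which 157 were within these limits and 8 moved, 6 of them of HOXB5 under a smaller pseudocount or none. With changes centred on the median of all genes, the number of HOXB genes at least 2-fold apart was 1 instead of 2 in each comparison with CEBPA, HOXB8 being the gene lost. Under 2 alternatives chosen after seeing the data, no pseudocount and pseudocount 0.1 with centring, the count stayed at 2, so the lost call needs both the added 1 and the centring. With pseudocount 0.1, HOXB5 differed by -0.70 in CEBPA vs CTR and by -0.92 in CEBPA vs P30. The difference of HOXB8 in P30 vs CTR was the only one to change sign, under both settings with centring. HOXB7, at 0.16 in CEBPA vs CTR, differed by less than 0.20, and with no depth or spread in the tables so small a difference cannot be told from noise.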
